A study of Mus musculus with 4 samples.

Results

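Activated invariant natural killer T (iNKT) cells that carried transcripts of several chemokine and activation genes at once made up 124 of 19647 kept thymic cells. Cells were chosen by their own measured transcripts, at least 1 UMI of at least 4 of 8 marker genes, a UMI being a molecular tag that counts 1 captured transcript. The 8 genes were Ccl3, Ccl4, Xcl1, Tnfrsf9, Rgs16, Nr4a2, Lag3 and Il2ra. The chosen cells are called marker-rich cells here, and the 19523 other kept cells serve as the comparison. By library they numbered 11 of 7231 and 6 of 3651 cells in C57BL/6 replicates 1 and 2, and 55 of 4598 and 52 of 4167 cells in Hivep3-/- replicates 1 and 2, so 86.3% of them came from the libraries labelled Hivep3-/-.

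The samples were thymic cells of untreated mice aged 8 to 9 weeks, 2 of wildtype C57BL/6 and 2 of Hivep3-/- on the same background, with 1 mouse in each library. Cells binding the CD1d tetramer loaded with PBS57, a glycolipid that the iNKT receptor recognises, were sorted as a 50:50 mixture of CD44low and CD44high cells and sequenced from the 5' end of the transcripts by droplet single-cell RNA sequencing. The genotypes were run as separate libraries, so that genotype and library cannot be told apart, and each genotype is represented by 2 mice. Kept cells had at least 500 and under 4100 genes, at least 1000 UMIs and under 6% mitochondrial UMIs, and their median depth was 4596 and 5268 UMIs in the C57BL/6 and 6833 and 6491 UMIs in the Hivep3-/- libraries.

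An iNKT cell that meets its ligand through the T cell receptor switches on transcription factors of the NR4A, EGR and IRF families and the NF-kB pathway, and then genes for chemokines, cytokines and receptors of the TNF superfamily. CCL3, CCL4 and XCL1 attract other immune cells, TNFRSF9 (4-1BB) is a costimulatory receptor, LAG3 restrains activated T cells and IL2RA forms the high-affinity IL-2 receptor. RGS16 dampens G-protein signalling and NR4A2 is an orphan nuclear receptor induced by receptor signalling. Secretion itself was not measured, since these are transcript counts.

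To show regulatory sequence of chemokine genes described below, the 250 bases before the RefSeq transcription start (GRCm38.p6, minus strand, written 5' to 3') are given for Ccl3 (chr11:83649379-83649628), for Ccl1 (chr11:82179813-82180062), a chemokine gene found in 13 of the 107 Hivep3-/- and 0 of the 17 C57BL/6 marker-rich cells, and for Xcl1 (chr1:164935523-164935772). Capitals mark matches on either strand to the NFAT core GGAAAA, to the NF-kB consensus or to the AP-1 motif TGANTCA.
Ccl3: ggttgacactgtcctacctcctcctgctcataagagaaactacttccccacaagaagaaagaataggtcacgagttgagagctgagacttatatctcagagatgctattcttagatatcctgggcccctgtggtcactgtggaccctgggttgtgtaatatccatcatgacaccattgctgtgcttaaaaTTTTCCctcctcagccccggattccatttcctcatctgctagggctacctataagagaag
Ccl1: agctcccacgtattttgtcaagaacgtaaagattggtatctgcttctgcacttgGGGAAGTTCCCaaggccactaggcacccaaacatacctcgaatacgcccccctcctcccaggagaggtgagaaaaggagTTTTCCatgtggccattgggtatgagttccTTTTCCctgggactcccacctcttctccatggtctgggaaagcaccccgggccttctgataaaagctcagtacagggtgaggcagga
Xcl1: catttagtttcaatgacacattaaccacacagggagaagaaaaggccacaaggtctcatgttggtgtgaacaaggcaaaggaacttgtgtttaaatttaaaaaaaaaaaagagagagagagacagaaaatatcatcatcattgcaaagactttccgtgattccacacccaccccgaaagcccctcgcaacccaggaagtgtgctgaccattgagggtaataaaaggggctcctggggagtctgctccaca
The Ccl3 window held 1 NFAT core. The Ccl1 window held 2 NFAT cores and an NF-kB match that reads on both strands, and the Xcl1 window held none of the 3 motifs. NFAT cores were found in 2 of the 6 marker genes with an entry (Ccl3 and Tnfrsf9) and in 20.6% of 27025 promoter windows of the same length. The NF-kB consensus was found in 1 of the 6 (Il2ra) and in 7.01% of all windows, and the AP-1 motif in 0 of the 6 and in 6.87% of all. The first start listed for each gene was counted. A later start of Tnfrsf9 (chr4:150927749-150927998) held an NF-kB match and an AP-1 motif in its window. Ccl4 and Lag3 had no entry. A match is a description of the letters and not a site.

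The share of marker-rich cells was the first comparison, since the rule uses no genotype. It was 0.152% (95% Wilson interval 0.0850 to 0.272) and 0.164% (0.0753 to 0.358) of kept cells in the C57BL/6 libraries, and 1.20% (0.920 to 1.55) and 1.25% (0.953 to 1.63) in the Hivep3-/- libraries. The higher pair of shares was that of the Hivep3-/- libraries, and the counting intervals of the pairs did not overlap. The means were 0.158% ± 0.00864 and 1.22% ± 0.0366 (SD, n = 2 libraries each), 7.72 times apart. The exact permutation test, two-sided, gave p = 0.333, the smallest value that 2 libraries against 2 can give. The intervals cover counting error only.

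**Figure D1:**
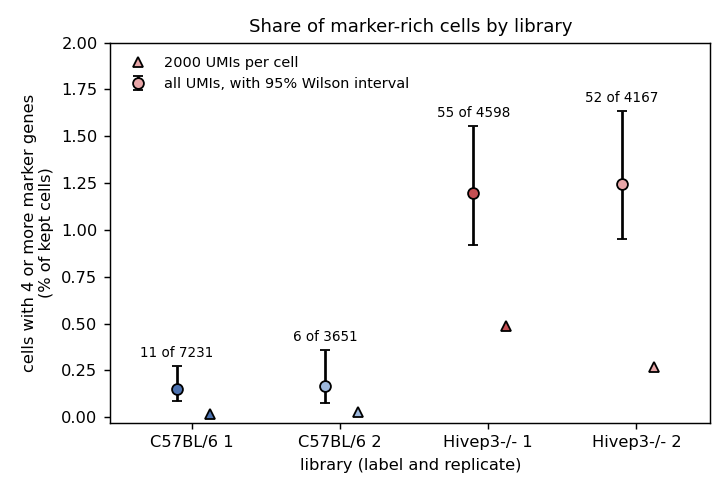
Share of kept cells with at least 4 of the 8 marker genes (y axis, percent) in each of the 4 libraries (x axis). Circles use all UMIs, with 95% Wilson intervals as bars and the counts of cells above; triangles use cells thinned to 2000 UMIs. The 2 Hivep3-/- libraries sit at 1.20% and 1.25%, above the 2 C57BL/6 libraries at 0.152% and 0.164%.

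Depth differed between the cells compared, and its part in the shares was tested by thinning. Marker-rich cells had median depths of 7454, 5176, 7833 and 8344 UMIs in C57BL/6 replicates 1 and 2 and Hivep3-/- replicates 1 and 2, against 4592, 5268, 6822 and 6471 UMIs in the other cells. Each cell with at least 2000 UMIs was thinned to that number. Cells with fewer were left out, 502 and 91 in C57BL/6 and 82 and 75 in Hivep3-/- libraries. After thinning, 0.0149% and 0.0281% of C57BL/6 cells and 0.487% and 0.269% of Hivep3-/- cells still had 4 or more marker genes. The C57BL/6 values were 1 cell in each library. At 3 or more marker genes, the thinned shares were 0.267% and 0.140% against 1.17% and 1.10%. The 50:50 sort on CD44 also sets the mixture of cell states in each library. With each cluster given the same weight in all 4 libraries, the shares were 0.179% and 0.146% in C57BL/6 and 1.05% and 1.29% in Hivep3-/-. Xcl1 was widely detected and more so in Hivep3-/- libraries. Without it, 4 or more of the other 7 marker genes were found in 0.0415% and 0.0548% of C57BL/6 cells and in 0.783% and 0.528% of Hivep3-/- cells.

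The marker genes were also compared singly over all kept cells. By the quasi-likelihood test of edgeR, adjusted by Benjamini-Hochberg over 12291 genes, 0 of the 8 were called, where 0.765% of all genes were called at an adjusted p under 0.05 (0.439% higher and 0.325% lower in Hivep3-/-). Of the 8, 6 had an unadjusted p under 0.05 by edgeR, as had 1472 of all 12291 genes. DESeq2 called 4 of the 8 (Ccl4, Xcl1, Nr4a2 and Lag3) and 413 of all 12291 genes. Xcl1 had 187 and 252 CPM (UMIs of the gene per 1000000 UMIs, here TMM-scaled and below not) in C57BL/6 and 443 and 471 CPM in Hivep3-/- libraries, a log2 difference of 1.06 (SE 0.17, adjusted p = 0.0563). The libraries did not overlap for Xcl1. Lag3 stood at 1.06 (SE 0.22, adjusted p = 0.107), Nr4a2 at 1.15 (SE 0.32, adjusted p = 0.212) and Il2ra at 1.20 (SE 0.38, adjusted p = 0.271) on the log2 scale. Ccl3 had 2.42 and 2.11 CPM in C57BL/6 and 2.78 and 2.03 CPM in Hivep3-/- libraries, a log2 difference of 0.08 (SE 0.31, adjusted p = 0.946). The ranges of Ccl3 overlapped.

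The target of the knockout, Hivep3, was read in all 4 libraries. It had 39.7 and 37.8 CPM over all kept cells of C57BL/6 and 96.2 and 67.2 CPM of Hivep3-/- libraries, 1.08 higher on the log2 scale in the latter (SE 0.19, adjusted p = 0.0743 by edgeR, 3.89e-04 by DESeq2, and called under 4 of 8 other settings). The position of the reads in the gene is not in the count tables and the sources used here do not give the deleted part of the gene, so these counts do not check the label, and every direction below is that of libraries labelled Hivep3-/-. Among marker-rich cells, 5 of 11 and 2 of 6 C57BL/6 cells and 35 of 55 and 18 of 52 Hivep3-/- cells had a Hivep3 UMI.

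The number of marker genes per cell fell off steeply. Exactly 3 were found in 405 cells, just outside the rule, and exactly 4 in 70 cells, just inside it, while 25 cells had 5, 16 had 6, 10 had 7 and 3 had all 8. Of the 54 cells with 5 or more, 52 came from Hivep3-/- libraries (33 and 19) and 1 from each C57BL/6 library. The summed UMIs of the 8 genes had a median of 7 in cells with 3 marker genes, 11 in cells with 4, 21 in cells with 5, 62 in cells with 6, 110 in cells with 7 and 287 in cells with 8. More marker genes in a cell thus went with many more UMIs of those genes, while the median depth of the cell moved from 6863 UMIs at 3 marker genes to 9864 at 8.

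The 124 cells shared no single pattern of markers. They held 53 different combinations, and the most frequent, Xcl1 with Tnfrsf9, Nr4a2 and Lag3, was found in 14 cells. Xcl1 had a UMI in 113 of them, Tnfrsf9 in 108, Nr4a2 in 85, Rgs16 in 68, Ccl4 in 67, Lag3 in 66, Il2ra in 49 and Ccl3 in 39. At least 1 of the 3 chemokine genes was present in 116 cells (93.5%), and 8 cells had none. Ccl3 or Ccl4 was found in 74 (59.7%) of them against 3.95% of the other cells. All 39 cells with Ccl3 also had Xcl1, and 32 of them also had Ccl4. Across the 124 cells the strongest pair was Ccl3 with Ccl4 (Pearson r = 0.55), then Tnfrsf9 with Rgs16 (0.42), while Lag3 and Il2ra had r = -0.17. For background, 6.19% of the iNKT17-like cells described below had an Xcl1 UMI, 3.65% Tnfrsf9, 9.37% Nr4a2, 6.35% Lag3 and 0.635% Rgs16. The correlations are descriptions over cells chosen for the same genes, which share 4 libraries.

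The levels of the 8 marker genes follow from the rule and are given without a test. Xcl1 differed most between the labels. Marker-rich cells of C57BL/6 had 279 and 289 CPM of Xcl1, near the 181 and 243 CPM of the other C57BL/6 cells, whereas those of Hivep3-/- had 4647 and 2646 CPM against 408 and 444 CPM in the other cells. Ccl4 had 238 and 86.7 CPM in marker-rich C57BL/6 cells and 1620 and 333 CPM in Hivep3-/- cells, against 10.6 to 22.4 CPM in the other cells of the 4 libraries. Ccl3 had 31.0 and 664 CPM in C57BL/6 and 165 and 47.3 CPM in Hivep3-/-, and 16 of the 23 UMIs behind the value of 664 came from 1 cell. Tnfrsf9 had 207, 520, 625 and 342 CPM in the order of the libraries above, against 24.8 to 31.4 CPM in the other cells. Rgs16 had 82.7, 86.7, 397 and 153 CPM against 3.18 to 4.75 CPM. Nr4a2, Lag3 and Il2ra were likewise above the other cells in each library, with 103 to 236, 86.7 to 171 and 31.0 to 173 CPM.

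**Figure D2:**
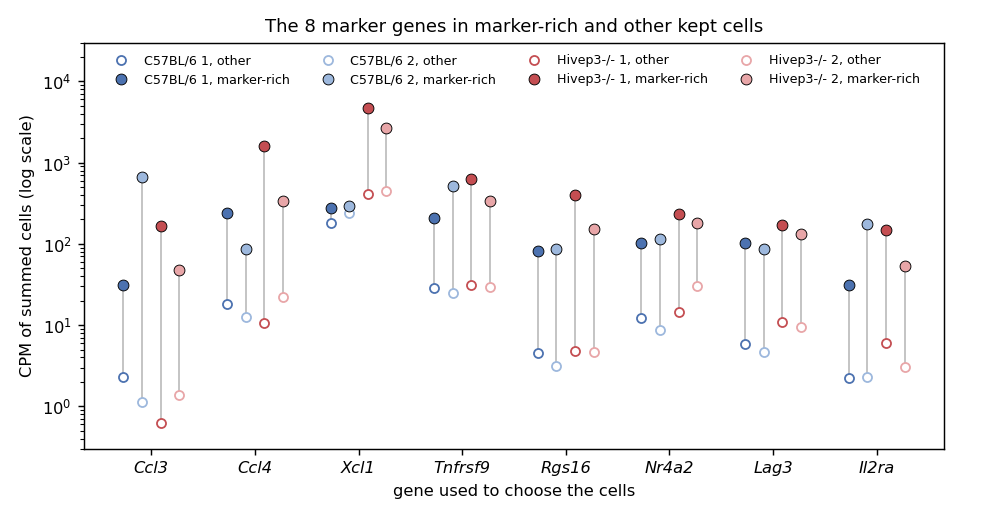
CPM of the 8 marker genes (x axis) on a log scale (y axis), summed over marker-rich cells (filled) and over the other kept cells (open) of each library, joined by a line. Filled points lie above open ones throughout because the genes chose the cells; for Xcl1 the 2 C57BL/6 pairs are close together (279 against 181 and 289 against 243 CPM).

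The cells were T cells by their transcripts. Cd3e and Cd3d, subunits of the T cell receptor complex, had a UMI in 124 of 124 cells, against 99.1% and 98.4% of the other cells. Trbv13-2, which encodes Vbeta8.2 of the iNKT receptor, was found in 52.1% of the other cells and in 63 of the 124. Zbtb16, which encodes the iNKT lineage factor PLZF, was found in 39 (31.5%) of them and in 39.5% of the other cells. Trav11, the variable segment of the invariant chain, was found in 19 marker-rich cells and in 9.18% of the others. Cd79a, Cd79b, Lyz2, Foxp3 and Trdc, which define B cells, myeloid cells, regulatory T cells and gamma-delta T cells, were at 0 in all 124. They were rare in the other cells too, at 0.143%, 1.65%, 0.0922%, 0.0461% and 0.195% of cells. Their absence from 124 cells therefore does not set the marker-rich cells apart. Of the marker lists for other cell types, 7 of 8 B cell genes and 7 of 12 myeloid genes were at 0. The summed B cell list had 82.7 and 116 CPM in marker-rich C57BL/6 cells and 58.5 and 90.3 CPM in Hivep3-/- cells, against 76.2 to 138 CPM in the other cells. The myeloid list had 217 and 318 CPM and 205 and 219 CPM, against 229, 223, 247 and 258 CPM in the other cells of the same libraries. Its gene Cst3 was found in 78 of the 124 cells (62.9%) and in 56.5% of the others. The part of other cell types in the results was not tested.

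By cluster, the cells lay most often in 1 late iNKT1-like cluster. Clusters were rebuilt on all kept cells without the 8 marker genes, Hivep3, sex-linked genes and T cell receptor segments, and were named from marker lists. Leading genes were ranked afterwards with the marker genes included, and Xcl1 is among those of the Gzmb-led cluster. The late iNKT1-like cluster led by Gzmb and Gzmc held 45 of the 124 marker-rich cells, namely 1 and 2 from C57BL/6 and 26 and 16 from Hivep3-/-. They were 2.31% of its 1952 cells, where 0.631% of all kept cells were marker-rich. The late iNKT1-like cluster led by Ccl5 and Gzma held 20 (0.632% of its cells) and the iNKT1-like cluster 15 (0.279%). An unnamed cluster led by Tnni1 and Htra3 held another 15 (1.99%), all of them from Hivep3-/- libraries. That cluster had 621 Hivep3-/- and 132 C57BL/6 cells in all. The iNKT2-like cluster held 14, with 6 of the 17 C57BL/6 cells (35.3%) and 8 of the 107 Hivep3-/- cells (7.48%). It held 22.4% and 13.4% of all kept cells in the C57BL/6 and 9.72% and 11.9% in the Hivep3-/- libraries. No marker-rich cell was found among 630 iNKT17-like cells, which allows a share of up to 0.476%, although 12.5% of those cells had an Il2ra UMI at a median depth of 7263 UMIs. Ccl3 and Ccl4 were at 0 in all 630 of them. Marker-rich cells were likewise absent from the 584 cells of an unnamed cluster led by Ccnb2 and the 98 of a cycling-like cluster led by Mki67. An unnamed cluster led by Cdc6 held 1 in 1197 cells (0.0835%).

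Within clusters, the share of marker-rich cells was again larger in Hivep3-/- libraries for most types. In the Gzmb-led cluster it was 0.248% and 0.419% of 403 and 477 C57BL/6 cells and 4.08% and 3.69% of 638 and 434 Hivep3-/- cells. In the iNKT1-like cluster 2 of 3520 C57BL/6 cells (0.0568%) and 13 of 1859 Hivep3-/- cells (0.699%) were marker-rich. In the iNKT2-like cluster these were 6 of 2108 (0.285%) and 8 of 941 (0.850%). The stage 0-like cluster led by Gm43352 and Itm2a did not show this order, with 2 of 290 (0.690%) C57BL/6 and 3 of 523 (0.574%) Hivep3-/- cells, nor did a cycling-like cluster, with 1 of 297 and 0 of 162. The counts per cluster are small and were not tested.

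**Figure D3:**
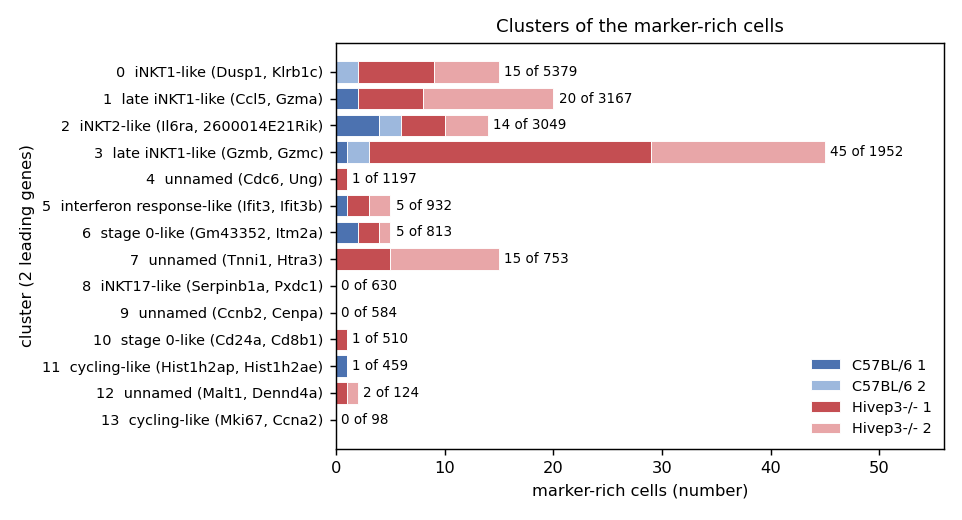
Number of marker-rich cells (x axis) in each of the 14 clusters (y axis, with 2 leading genes), coloured by library, with the count of all cells of the cluster beside each bar. The Gzmb-led cluster holds 45 of the 124, and no marker-rich cell lies in the iNKT17-like cluster or in the clusters led by Ccnb2 and by Mki67.

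The other genes of the marker-rich cells are described against the other kept cells of the same library, with no test, since every gene of the cells bears on how they were chosen. At a level of at least 20 CPM, 12 of 5130 genes (0.234%) were at least 2-fold higher in each of the 4 libraries and 16 of 5244 (0.305%) were at least 2-fold lower. In C57BL/6 these rest on very few transcripts, since the 17 cells gave between 2 and 21 UMIs of each of the 12 genes. In the 2 Hivep3-/- libraries, which were taken alone after the data had been seen, 67 of 5148 genes (1.3%) were at least 2-fold higher and 85 of 5390 (1.58%) at least 2-fold lower. Of the 67, 27 stayed above 2-fold after the cell with the most UMIs of the gene was left out of each library. Of the higher genes named below, Nr4a3, Spry2, Relb, Bcl2a1b, Tnfsf8, Il13, Tigit, Gzmc, Serpinb9 and Bcat1 were not among the 27. Weighted to the clusters of the marker-rich cells, 65 genes were higher and 67 lower, of which 53 and 49 were also found without the weights. Of the higher genes named below, Cd160, Bcl2a1b and Gzmc were not 2-fold higher with the weights. Of the lower ones, Aqp3, Tesc and 1700097N02Rik were not 2-fold lower.

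The first list held transcription factors and feedback genes of T cell receptor signalling. Of 18 genes of that list at this level, 6 were at least 2-fold higher in both Hivep3-/- libraries and 0 lower, with a median log2 ratio of 0.80 against -0.06 over 5672 genes. Irf8, an interferon regulatory factor, had 51.7 and 57.8 CPM in marker-rich C57BL/6 cells and 125 and 79.6 CPM in Hivep3-/- cells, against 11.0, 14.3, 11.6 and 11.9 CPM in the other cells. Irf8 was above every set of other cells in all 4 libraries, from 2 and 1 cells in C57BL/6 and from 24 of 55 and 14 of 52 cells in Hivep3-/-. Irf4, a factor whose level follows the strength of receptor signalling, had 31.0, 28.9, 27.2 and 19.4 CPM against 3.44 to 7.37 CPM. Egr3 had 20.7, 28.9, 41.8 and 34.4 CPM against 5.03 to 12.7 CPM, and Nr4a1, an orphan receptor induced by the same signal, 196, 57.8, 447 and 144 CPM against 24.6 to 64.8 CPM. The C57BL/6 values of Irf4 and Egr3 came from 1 cell in each library. Nr4a3 and Spry2, which encodes an inhibitor of MAP kinase signalling, were higher in both Hivep3-/- libraries, at 37.6 and 17.2 CPM and at 20.9 and 30.1 CPM.

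The next list held genes of the NF-kB pathway and its targets. Of 19 genes at this level 5 were at least 2-fold higher in both Hivep3-/- libraries and 0 lower (median log2 ratio 0.64). Nfkb2, a subunit of the pathway, had 103, 57.8, 87.8 and 43.0 CPM against 22.7, 16.6, 35.4 and 15.6 CPM in the other cells. Traf1, an adaptor of TNF receptors, had 62.1, 57.8, 148 and 103 CPM against 26.0, 26.6, 39.1 and 32.9 CPM. Both genes were at least 2-fold higher in each library. Rel had 79.4 and 71.0 CPM and Relb 115 and 83.9 CPM in Hivep3-/- marker-rich cells, against 24.4 and 27.6 CPM and 55.8 and 37.8 CPM. Bcl2a1b, a survival gene of the BCL2 family with near-identical copies, had 514 and 338 CPM against 176 and 168 CPM.

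Among the other ligands, 5 of 13 genes were higher in both Hivep3-/- libraries and Cd40lg was lower (median log2 ratio 1.27). Tnfsf14 (LIGHT) had 138 and 55.9 CPM there against 34.2 and 18.7 CPM, and was present in 31 of 55 and 16 of 52 cells. Tnfsf8 (CD30 ligand) had 128 and 53.8 CPM against 31.5 and 25.5 CPM, in 25 and 18 cells. Without the top cell of each library, Tnfsf14 stayed at least 2-fold higher in both and Tnfsf8 did not. Lta (lymphotoxin alpha) had 142 and 83.9 CPM against 19.3 and 13.2 CPM, with 32 of its 68 UMIs in replicate 1 in 1 cell. Cd40lg, the ligand of CD40, had 51.7, 57.8, 56.4 and 30.1 CPM in the order of the libraries against 120, 124, 140 and 72.6 CPM, at least 2-fold lower in each. Ifng, the signature cytokine of iNKT1 cells, was not past 2-fold in both Hivep3-/- libraries, at 196 and 174 CPM against 48.0 and 94.6 CPM.

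Ccl1 and Il13 were carried by very few cells. Ccl1, which encodes a ligand of CCR8, had 404 UMIs in 6 of 55 cells of Hivep3-/- replicate 1, of which 357 were in 1 cell, and 443 UMIs in 7 of 52 cells of replicate 2, of which 344 were in 1 cell. It was at 0 in the 17 marker-rich C57BL/6 cells, and the other cells of the 4 libraries had 0.0668, 0.118, 2.46 and 0.553 CPM. Il13, a type 2 cytokine, had 129 UMIs in Hivep3-/- replicate 1, of which 121 were in 1 cell, and 7 UMIs in replicate 2. In C57BL/6 it had 13 and 0 UMIs.

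Receptor genes of activated T cells gave 4 of 12 higher in both Hivep3-/- libraries (median log2 ratio 0.70). Crtam, an adhesion receptor of activated lymphocytes, had 370 and 163 CPM there against 13.1 and 16.5 CPM in the other cells, and was found in 29 of 55 and 27 of 52 cells. In C57BL/6 it had 51.7 CPM from 5 UMIs in replicate 1 and was at 0 in replicate 2. Cd160 had 269, 116, 533 and 422 CPM in the order of the libraries, against 81.4, 105, 166 and 160 CPM. It was present in 44 of 55 and 49 of 52 Hivep3-/- cells, against 49.1% and 49.8% of the other cells. With the other cells weighted to the same clusters, Cd160 was not 2-fold higher in both Hivep3-/- libraries. Tigit, an inhibitory receptor, had 69.0 and 60.2 CPM against 27.5 and 26.5 CPM. Cd83 had 107 and 49.5 CPM against 3.59 and 4.19 CPM, with 34 of its 51 UMIs in replicate 1 in 1 cell.

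**Figure D4:**
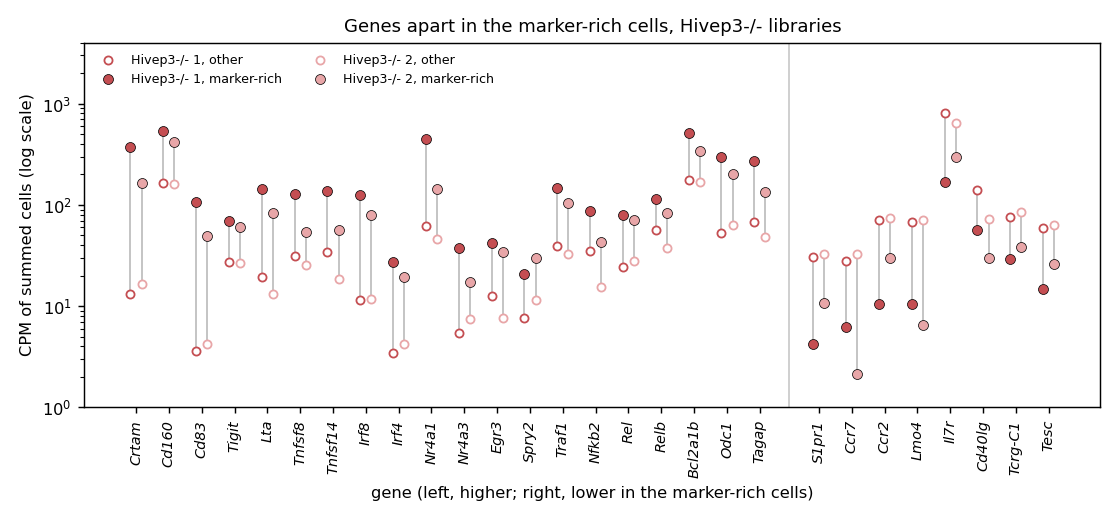
CPM (y axis, log scale) of genes at least 2-fold higher (left of the line) or lower (right) in marker-rich cells of both Hivep3-/- libraries (x axis), with filled points for marker-rich and open points for other kept cells. Crtam moves from 13.1 and 16.5 to 370 and 163 CPM, and S1pr1 from 30.6 and 32.9 to 4.18 and 10.8 CPM.

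Several receptors of cell migration had low values in the marker-rich cells. S1pr1, the receptor that leads T cells out of the thymus, had 0 UMIs in the marker-rich cells of both C57BL/6 libraries and 4.18 and 10.8 CPM in Hivep3-/-, against 22.6, 22.6, 30.6 and 32.9 CPM in the other cells. Ccr7, a homing receptor, had 20.7, 0, 6.27 and 2.15 CPM against 74.1, 42.3, 28.0 and 32.7 CPM. Ccr2 had 0, 28.9, 10.5 and 30.1 CPM against 81.5, 96.1, 71.5 and 74.6 CPM. These 3 receptors were at least 2-fold lower in both Hivep3-/- libraries. In C57BL/6 the values rest on 17 cells, with 0 to 7 UMIs of each of the 11 lower genes named here, and a drop there was not tested. Of 14 genes on the G-protein and chemokine receptor list at this level, 3 were lower and 0 higher in both Hivep3-/- libraries (median log2 ratio -0.54). Il7r, the IL-7 receptor chain of resting T cells, had 145, 462, 169 and 295 CPM against 531, 517, 807 and 644 CPM, lower in both Hivep3-/- libraries but 462 against 517 in C57BL/6 replicate 2. Lmo4, a transcriptional cofactor, had 62.1, 0, 10.5 and 6.45 CPM against 417, 288, 67.2 and 70.1 CPM. Tcrg-C1, a constant segment of the gamma receptor chain, had 0, 0, 29.3 and 38.7 CPM against 59.8 to 84.9 CPM. The remaining genes past 2-fold in each library were Bcat1, Tagap, Odc1, Myo1e, Gm45716 and 3110082I17Rik among the higher ones, and Gm43352, Aqp3, 1700097N02Rik, Tesc and Ccr9 among the lower ones named by the rule, with 1 UMI of Ccr9 in the 107 Hivep3-/- cells.

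The remaining lists are given by their counts. On the immediate-early and stress list, which tissue handling also raises, 1 of 19 genes was higher (Gadd45b) and 1 lower (Hspa1b) in both Hivep3-/- libraries, and the summed list had 9012 and 7793 CPM in marker-rich cells against 7869 and 7739 CPM in the others. The IL-2 receptor and STAT5 list had 0 of 14 and the glycolysis list 0 of 11 genes past 2-fold in either direction. Cycling genes were lower for 7 of 10 genes and for 0 of 10 when the other cells were weighted to the same clusters. Of 10 cytotoxic granule genes, Gzmc and Serpinb9 were higher, and 51 of the 52 Gzmc UMIs of Hivep3-/- replicate 1 were in 1 cell.

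Cells with 5 or more marker genes differed from those with exactly 4. In Hivep3-/- libraries, cells with 4 marker genes numbered 22 and 33 and those with 5 or more 33 and 19. Crtam had 13.5 and 70.5 CPM in the former and 529 and 329 CPM in the latter, where it was found in 81.8% and 73.7% of cells. Irf8 had 88.0 and 33.6 CPM and then 142 and 161 CPM. Odc1, which encodes the first enzyme of polyamine synthesis and is a target of MYC, had 149 and 84.0 CPM and then 360 and 407 CPM, against 52.8 and 63.0 CPM in the other cells. All 3 genes were highest in the cells with 5 or more marker genes in both libraries.

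The summed list of MYC and ribosome biogenesis genes was also highest at 5 or more. Over all marker-rich cells, 1 of its 20 genes (Odc1) was at least 2-fold higher in both Hivep3-/- libraries and 0 lower (median log2 ratio 0.71). Myc had a mean of 176 CPM there against 104 CPM. The summed level of the list was 5023 and 5724 CPM in the other cells, 5927 and 6748 CPM in cells with 4 marker genes and 11613 and 12099 CPM in cells with 5 or more. Among the other cells it was 5704 and 6470 CPM at 0 marker genes and 4691 and 5347 CPM at 1. Other cells weighted to the clusters of the latter had 6108 and 5968 CPM. The median per cell was 9826 and 11759 CPM against 4122 and 4745 CPM in the other cells. Npm1, a nucleolar protein, had 1123 and 1522 CPM at 4 marker genes and 2184 and 2458 CPM at 5 or more, and Ncl had 426 and 541 and then 1159 and 1112 CPM. Ldha, from the glycolysis list with 0 of 11 genes past 2-fold over all marker-rich cells, had 771 and 1014 CPM and then 1773 and 1411 CPM.

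Il7r went the other way. It had 372 and 359 CPM at 4 marker genes and 78.7 and 179 CPM at 5 or more, against 807 and 644 CPM in the other cells. S1pr1 had 0 and 16.8 CPM and then 6.05 and 0 CPM. Of the 52 Hivep3-/- cells with 5 or more marker genes, 31 lay in the Gzmb-led cluster, and yet Gzmb, a granule protease, had 39.3 and 102 CPM in the 52 cells against 863 and 887 CPM in other cells weighted to the same clusters. At exactly 4 marker genes it had 1401 and 333 CPM, and 140 of the 207 UMIs behind the value of 1401 were in 1 cell. In the 2 C57BL/6 cells with 5 or more marker genes, the MYC and ribosome biogenesis list had 17728 CPM. Median depth was 6342 and 8333 UMIs at 4 marker genes and 8776 and 8857 UMIs at 5 or more, and its part in these levels was not tested.

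**Figure D5:**
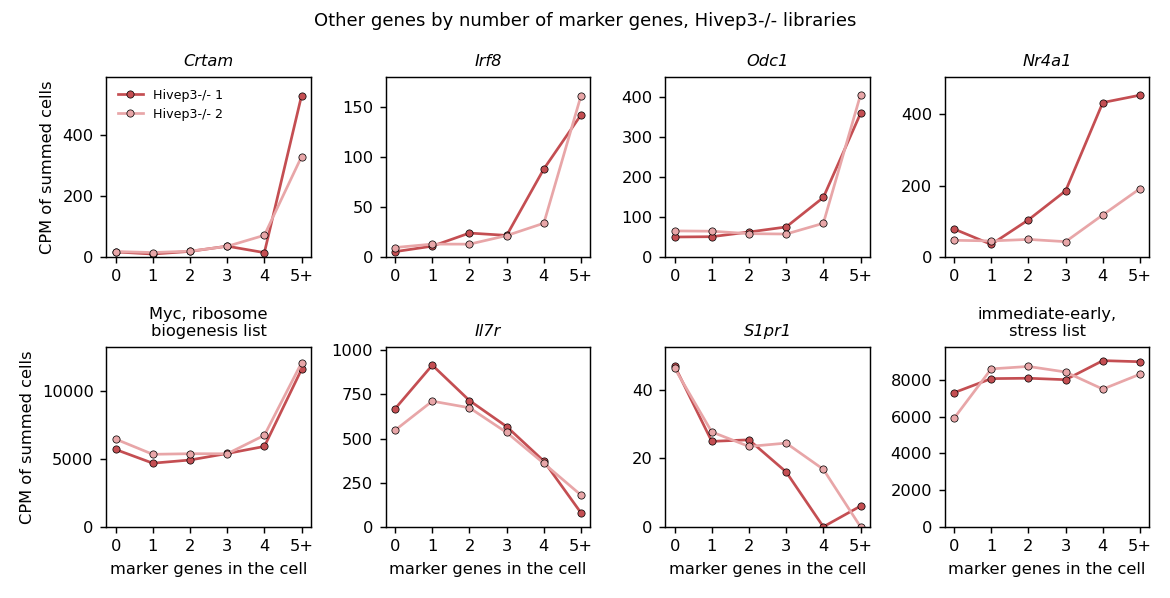
CPM of summed cells (y axes, from 0) by the number of marker genes in the cell (x axes, with 5 or more pooled) in the 2 Hivep3-/- libraries, for 6 genes and 2 gene lists. Crtam reaches 529 and 329 CPM at 5 or more, Il7r falls to 78.7 and 179 CPM, and the immediate-early and stress list stays between 5910 and 9053 CPM.

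Between genotypes, the marker-rich cells themselves could be compared on 96693 and 34621 UMIs of C57BL/6 and 478376 and 464915 UMIs of Hivep3-/- libraries. edgeR called 6 of 3632 genes (0.165%) at an adjusted p under 0.05, 5 higher (0.138%) and 1 lower (0.0275%) in Hivep3-/-, and 209 genes had an unadjusted p under 0.05. In simulated data of this size, with the same spread between libraries for every gene, 40% of 4-fold and 2% of 2-fold changes were recovered. Differences of a few fold were thus mostly not detectable in such data. The larger spread of genes carried by single cells was not simulated. One of the 6 was Xcl1, which had chosen the cells, so that its call is not read as a test. Another was Ccl1, described above.

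Ccl5 (RANTES), a chemokine of late iNKT1 cells, had 321 and 202 CPM in marker-rich C57BL/6 cells and 3577 and 2699 CPM in Hivep3-/- cells, a log2 difference of 3.49 (SE 0.30, adjusted p = 1.00e-04 by edgeR). The libraries did not overlap, and Ccl5 was also higher in the other Hivep3-/- cells, at 1836 and 1443 CPM against 231 and 380 CPM. Klra1, a receptor of the Ly49 family whose members share sequence, had 41.4 and 0 CPM and then 769 and 759 CPM (log2 difference 4.67, SE 0.51, adjusted p = 5.94e-04 by edgeR), with 4 UMIs, all in 1 cell, in C57BL/6. The difference was 10.97 without C57BL/6 replicate 1 and 1.72 at 3 marker genes, and at 5 marker genes it was not called (adjusted p = 0.0598). Klra1 too was higher in the other Hivep3-/- cells, at 434 and 394 CPM against 103 and 116 CPM. Trbv1, a receptor segment, had 1 and 0 UMIs in C57BL/6 and came from 6 and 6 cells in Hivep3-/- (4.86, SE 0.77, adjusted p = 0.0234), and its call was lost under 6 of 10 other settings. Ckb, the brain-type creatine kinase, had 165 and 86.7 CPM in C57BL/6 and 8.36 and 2.15 CPM in Hivep3-/- (-4.61, SE 0.74, adjusted p = 0.0237), and lost its call under 4 of 8. Ckb also stood at 168 and 162 CPM in the other C57BL/6 cells against 51.4 and 54.3 CPM.

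The cluster makeup of the marker-rich cells differed between the labels, with 35.3% of C57BL/6 and 7.48% of Hivep3-/- cells in the iNKT2-like cluster. Of all kept cells, that cluster held 22.4% and 13.4% in C57BL/6 and 9.72% and 11.9% in Hivep3-/- libraries. The part of the makeup in these genotype differences was not tested. The test of whether a genotype difference in the marker-rich cells differed from that in the other cells called 82 of 11430 genes (0.717%) by edgeR, with 64 (0.56%) above and 18 (0.157%) below 0, but DESeq2 called 2. Without Hivep3-/- replicate 1 or 2 it called 7 or 15, and without C57BL/6 replicate 1 52.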

How the data were processed

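The values are UMI counts per gene and cell, deposited by the authors as filtered matrices for each library. Per the labels' processing notes they were made with Cell Ranger 3.1.0 on mm10, and the authors then used Seurat 3.1.4. Cells were kept by the thresholds given above. Scrublet's own threshold marked 10 cells and was taken as failed, so the main analysis kept all cells. As an alternative the 5% of cells with the highest score in each library were removed (9 of 124 marker-rich cells). The loss was uneven, with 3 of 11 and 1 of 6 marker-rich cells of C57BL/6 and 1 of 55 and 4 of 52 of Hivep3-/-. Of barcodes shared by libraries, 18 to 43 a pair, 2 were those of a marker-rich cell. Clusters came from scanpy 1.11.5 with leidenalg 0.10.2 (resolution 0.8, mutual nearest neighbours across libraries). Counts were summed per library and tested with edgeR 4.0.16 (filterByExpr, TMM), and with DESeq2 1.42.0 as an alternative. On simulated data of the genotype comparison over all kept cells, 94% of 4-fold changes were recovered. For the interaction, the genotype difference in the marker-rich cells against that in the other cells, 15% were recovered. These simulations too gave every gene the same spread. Standard errors are the log2 difference over the root of the F statistic. The cells and gene lists were chosen with earlier results of these data known. Genes named are the 8 marker genes, list genes at least 2-fold apart in each library, the 15 other genes of highest and 10 of lowest ratio among those, Hivep3, up to 5 genes called in each direction and up to 5 of the interaction. To these, list genes 2-fold apart in both Hivep3-/- libraries and genes compared between 4 and 5 or more marker genes were added after the data had been seen.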

Additional observations from a re-analysis of the deposited data

Results flagged for a closer look

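The genotype difference was larger or smaller in the marker-rich than in the other cells for 5 named genes, by edgeR's interaction test with Benjamini-Hochberg adjustment. DESeq2 called none of these 5 (adjusted p = 0.9995 for each, and 2 of all genes called, 232 with an unadjusted p under 0.05). Il13 had 134, 0, 270 and 15.1 CPM in marker-rich and 82.5, 33.9, 2.61 and 3.35 CPM in other cells of C57BL/6 replicates 1 and 2 and Hivep3-/- replicates 1 and 2 (interaction 5.28 on the log2 scale, SE 0.44, adjusted p = 1.95e-29), with 121 of its 129 UMIs in Hivep3-/- replicate 1 in 1 cell. Without that library the difference was 2.03 and not called, and without C57BL/6 replicate 1 it was 17.43. Hist1h2ap had 1158, 0, 33.4 and 127 CPM against 622, 697, 371 and 1007 CPM (-2.82, SE 0.29, adjusted p = 8.13e-19), and 109 of its 112 UMIs in C57BL/6 replicate 1 were in 1 cell. Without that library it was 13.35 and not called. Pclaf had 414, 0, 18.8 and 2.15 CPM (-3.50, SE 0.52, adjusted p = 2.85e-08), and all 40 UMIs of C57BL/6 replicate 1 were in 1 cell. It was 11.09 without that library and -1.68 without Hivep3-/- replicate 2, not called in either. Gzma had 486, 116, 20.9 and 105 CPM against 132, 209, 231 and 156 CPM (-2.43, SE 0.36, adjusted p = 4.37e-08), from 3 or fewer cells in each library. It was -0.24 without C57BL/6 replicate 1 and -1.32 without Hivep3-/- replicate 1, not called in either. Actb, found in all 124 cells, had 6671, 5170, 10053 and 8085 CPM against 8036, 6428, 7787 and 7831 CPM (0.93, SE 0.14, adjusted p = 7.92e-08), lower than the other cells in both C57BL/6 and higher in both Hivep3-/- libraries. Without Hivep3-/- replicate 1 it was 0.74 and not called.

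Barcodes outside the thresholds were not analysed. Of these, 4 of 421 in Hivep3-/- replicate 1 and 3 of 476 in Hivep3-/- replicate 2 had 4 or more marker genes, against 0 of 1143 and 0 of 592 in C57BL/6.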

How the results depend on the processing

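The Hivep3-/- share stayed above the C57BL/6 share in all alternatives, 3.57 times at 3 and 28.5 times at 5 marker genes, 17.6 and 5.57 times after thinning and 9.40 times without the highest doublet scores; leaving out each library gave 7.44 to 8.03 times. Genes at least 2-fold higher numbered 2 at 3 marker genes, 67 in the Hivep3-/- libraries alone, 65 there with cluster weights and 27 without the top cell, and 14 to 29 when each library was left out. Genes at least 2-fold lower numbered 3 at 3 and 184 at 5 marker genes, 85 in the Hivep3-/- libraries alone and 67 there with cluster weights, and 28 to 56 when each library was left out. Calls between genotypes within the marker-rich cells numbered 61 with no filter on low counts, 39 at 3 and 3 at 5 marker genes, and 5 to 66 when each library was left out (66 without C57BL/6 replicate 2, 21 and 28 without Hivep3-/- replicates 1 and 2). Over all kept cells they numbered 965 with no filter and 413 by DESeq2, and 14 to 112 when each library was left out (19 without C57BL/6 replicate 1, 14 without Hivep3-/- replicate 1). For the genotype difference in the marker-rich cells against that in the other cells, calls numbered 52 with no filter, 2 by DESeq2, 41 without the highest doublet scores, 23 at 3 and 29 at 5 marker genes, and 7 to 75 when each library was left out. The cause was not tested.

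With the replicate number as a block, 5 genes were called within the marker-rich cells and 212 over all kept cells. Same-numbered libraries did not deviate together (correlation 0.00755 over 11514 genes of all kept cells and 0.0859 over 456 genes of the marker-rich cells), so the numbers pair no samples, and no crossed pairing was fitted.

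Ccl3 over all kept cells was reversed without C57BL/6 replicate 2 (-0.01) and without Hivep3-/- replicate 1 (-0.18), in a range of -0.18 to 0.25 when each library was left out. At 5 marker genes Hist1h2ap (1.42), Pclaf (9.07) and Gzma (13.16) were reversed, and without C57BL/6 replicate 1 Hist1h2ap (13.35) and Pclaf (11.09), whose ranges when each library was left out were -3.74 to 13.35 and -6.42 to 11.09, all reversed values with adjusted p of 0.346 or more. Of 155 values of named genes and settings, 108 kept their direction and their side of the threshold. With 17 C57BL/6 cells, genes of few UMIs there could not be compared.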
